A study of Mus musculus with 7 samples.

Results

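The genes described are those of the proteasome, the protease complex that degrades ubiquitin-tagged proteins, measured by bulk RNA-seq in kidneys of cisplatin-treated C57BL/6J mice. Members are the protein-coding genes whose symbol begins with Psma to Psmg and a digit and which had at least 10 counts in 3 or more libraries. The rule found 48 members among 54532 genes in the table, and used no difference between groups. A further 2 names matched but were too low to be members: Psma8, a testis alpha subunit, and Psmb11, a thymus beta subunit that had no count in any library. The 48 members comprised 14 core subunits, 17 regulatory subunits, 5 immunoproteasome members and 12 accessory members, and all 48 were tested.

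There were 3 libraries labelled DXZ and 4 labelled saline, all from mice aged 6 to 8 weeks that are male in the series' description and had received 20 mg/kg cisplatin, a platinum drug that injures kidney tubules, into the tail vein. The DXZ mice had also received DXZ, an agent that the labels do not spell out, at 40 mg/kg by the same route, beginning 30 min ahead of cisplatin and repeated each 24 h over 3 days. All values are from injured kidneys, and no comparison with kidneys free of cisplatin was made. Whether each library stands for its own animal is not stated, so p-values measure the spread between these samples.

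The catalytic core of the proteasome is a stack of alpha and beta rings, with the gate in the alpha rings and the proteolytic sites on the beta subunits Psmb5, Psmb6 and Psmb7. A regulatory particle binds the end of the core, and its ATPases unfold substrates while its non-ATPase subunits bind and remove ubiquitin. In cells exposed to interferon gamma, Psmb8, Psmb9 and Psmb10 replace Psmb5, Psmb6 and Psmb7 in newly made cores, and the activator subunits Psme1 and Psme2 are induced with them; the resulting immunoproteasome supplies peptides to MHC class I. Genes of the standard subunits are known targets of the transcription factor NRF1, the product of Nfe2l1, when proteasome activity is limiting.

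The promoters of 3 members are shown, those of the inducible subunits Psmb8 and Psme1 and of the constitutive partner Psmb5. Each runs 5′ to 3′ on its gene's strand from 250 bases before to 50 bases after the transcription start in RefSeq (GRCm38.p6), at chr17:34197945-34198244 (plus strand) for Psmb8, chr14:55578244-55578543 (plus strand) for Psme1 and chr14:54617946-54618245 (minus strand) for Psmb5. Capitals mark a match to 1 of 3 motif cores that a script found on either strand: a gamma-activated site (GAS) core in Psmb8, an interferon-stimulated response element (ISRE) core, here read on the opposite strand, in Psme1, and an antioxidant response element (ARE) core in Psmb5.
Psmb8: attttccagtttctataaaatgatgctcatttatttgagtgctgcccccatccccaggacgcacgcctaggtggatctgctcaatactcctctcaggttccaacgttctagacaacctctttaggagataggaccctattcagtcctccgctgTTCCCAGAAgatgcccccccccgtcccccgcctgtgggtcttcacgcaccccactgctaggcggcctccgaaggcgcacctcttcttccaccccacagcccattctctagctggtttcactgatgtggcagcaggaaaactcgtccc
Psme1: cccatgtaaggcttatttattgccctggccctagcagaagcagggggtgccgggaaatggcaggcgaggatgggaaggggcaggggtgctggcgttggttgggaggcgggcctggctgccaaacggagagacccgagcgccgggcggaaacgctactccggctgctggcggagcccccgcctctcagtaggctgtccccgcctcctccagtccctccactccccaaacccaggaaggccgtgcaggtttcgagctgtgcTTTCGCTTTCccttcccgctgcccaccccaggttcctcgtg
Psmb5: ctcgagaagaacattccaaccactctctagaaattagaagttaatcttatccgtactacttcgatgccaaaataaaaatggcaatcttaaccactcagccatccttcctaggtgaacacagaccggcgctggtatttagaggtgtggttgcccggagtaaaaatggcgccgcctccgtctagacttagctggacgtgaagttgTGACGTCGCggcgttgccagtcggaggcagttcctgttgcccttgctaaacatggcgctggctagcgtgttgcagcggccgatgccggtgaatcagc

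RefSeq windows were found for 41 of the 48 members, 44 windows in all because some genes had more than 1. The GAS core, TTCNNNGAA, was in 1 of 6 immunoproteasome windows, 0 of 12 core windows and 1 of 15 regulatory windows, against 8.3% of 32851 windows of the same length over all genes. The GAS match in Psmb8 begins 97 bases before the start. The ISRE core, GAAA repeated after a gap of 2 bases, was in 1 of 6 immunoproteasome windows, 1 of 12 core windows and 1 of 15 regulatory windows, against 3.44% of all. The ISRE match in Psme1 begins 10 bases after the start. The ARE core, TGACNNNGC, was in 0 of 6 immunoproteasome windows, 2 of 12 core windows and 2 of 15 regulatory windows, against 12.4% of all, and begins 47 bases before the Psmb5 start. The CCAAT box, searched as CCAAT, was in 1 of 6, 6 of 12 and 4 of 15, against 37.4% of all. Windows of accessory members held the GAS core in 1, the ISRE core in 2, the ARE core in 2 and the CCAAT box in 3 of 11. Each of the 3 sequences shown held 1 match to the 4 patterns. The windows of Psme2, Psmb4 and Psmb10 held none, so the sequences shown do not stand for the other members. A match is a string of letters, not evidence of binding.

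Total counts ranged from 16058157 to 18133736 per library. With edgeR's quasi-likelihood test and Benjamini-Hochberg adjustment over 15351 genes, 853 genes changed at an adjusted p below 0.05, 498 higher and 355 lower in DXZ. That count rests on single libraries: it was 1574, 1 and 141 without DXZ 1, 2 and 3, and 374, 296, 426 and 4 without saline 1, 2, 3 and 4. By rank correlation the library DXZ 1 stood furthest from its group. Its mean Spearman correlation with the other DXZ libraries was 0.9662, against 0.9745 to 0.984 for every other library within its own group. In DXZ kidneys 7 of 14 proximal tubule markers fell (median log2 fold change -1.42), and 5 of 12 tubule injury markers rose (median 1.09); without DXZ 3 these counts were 2 and 3, and without DXZ 2 or saline 4 both were 0 by edgeR, with medians of -1.23 and 0.95 without DXZ 2 and of -1.59 and 1.04 without saline 4. In such bulk samples fewer cells of a type and less RNA per cell cannot be told apart. Leukocyte markers were tested for 11 of 15 genes and none passed by edgeR (median log2 fold change -0.04). Without DXZ 1 that median was -1.09 and 1 marker was called lower. The summed level of the list was uneven, at 178.2, 45.47 and 29.4 CPM in DXZ 1, 2 and 3, against 104.9, 133.3, 74.41 and 63.41 CPM in saline 1, 2, 3 and 4.

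Proteasome transcripts took a larger share of the DXZ libraries. The 48 members together held 0.548%, 0.562% and 0.559% of counts in DXZ 1, 2 and 3, against 0.415%, 0.472%, 0.491% and 0.452% in saline 1, 2, 3 and 4, and the groups did not overlap. These are shares of raw totals, without TMM scaling. The TMM factor was 1.094 for DXZ 1, and 0.958 to 1.027 for the other libraries. On the scaled scores given below, DXZ 1 was level with saline 3 for the core and regulatory subunits. Of the 48 members, 4 rose in DXZ kidneys and 0 fell (8.33% higher, against 3.24% of all genes tested, of which 2.31% fell): the core subunit Psmb4, the activator subunits Psme1 and Psme2, and Psme2b, a near copy of Psme2. The fold change was positive for 42 of 48 members (87.5%), against 51.3% of all genes, with a median log2 fold change of DXZ over saline of 0.26, against 0.01 over all genes. At an unadjusted p below 0.05, 25 members were higher and 0 lower, where 14.0% and 11.4% of all genes were. Every DXZ library lay above every saline library for 19 members and below for 1, against 12.8% and 11.3% of all genes.

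**Figure D1:**
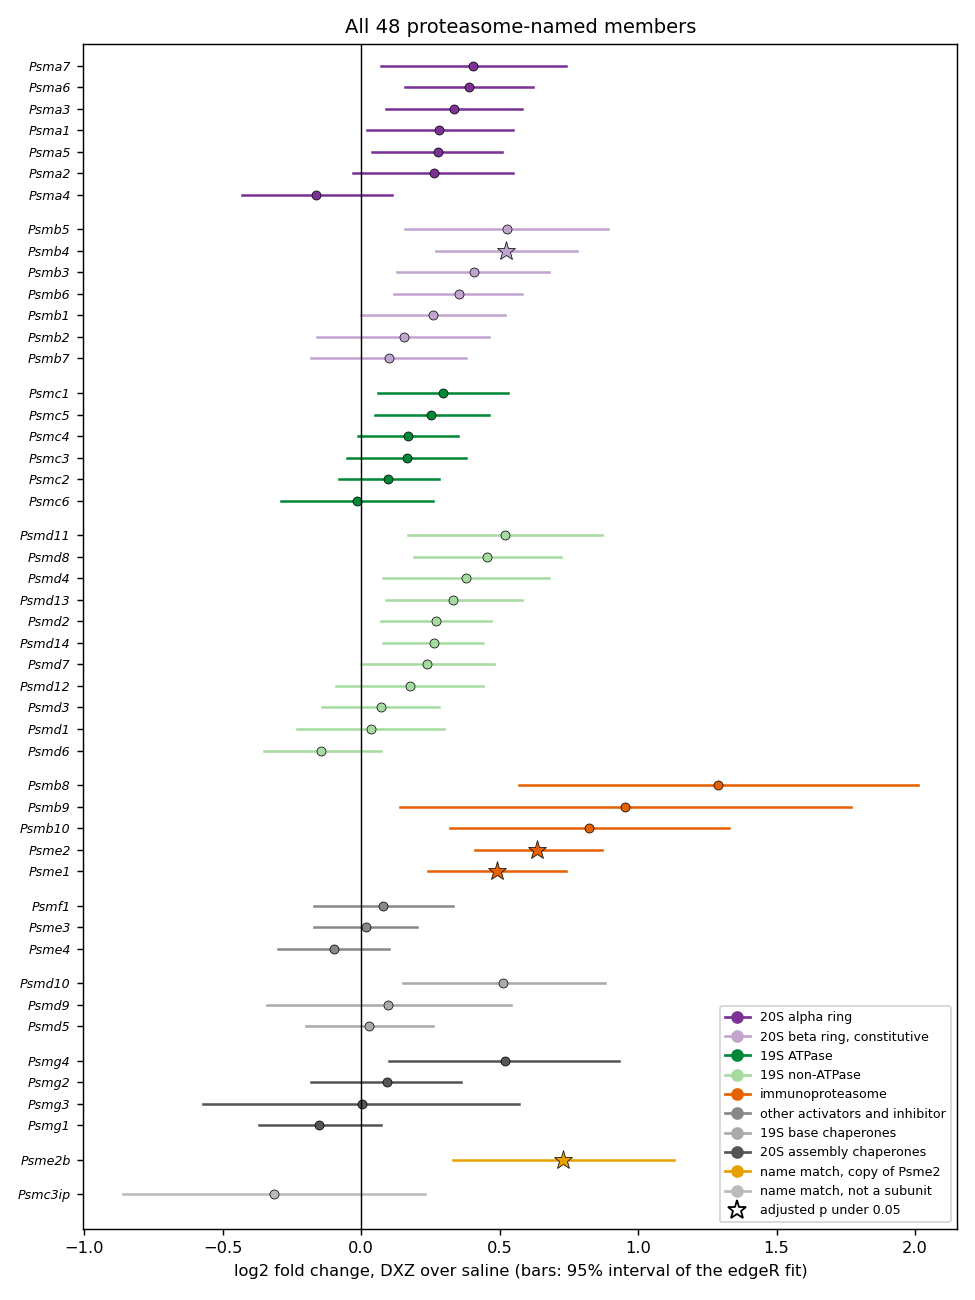
Log2 fold change of DXZ over saline (horizontal axis) for the 48 members, grouped by role; bars are the 95% interval of the edgeR fit (3 DXZ and 4 saline libraries) and stars mark an adjusted p below 0.05. The fold changes ran between -0.32 (Psmc3ip) and 1.29 (Psmb8), and the 5 immunoproteasome members lie between 0.49 and 1.29.

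The classes differed in size of change. The median log2 fold change was 0.82 over the 5 immunoproteasome members (range 0.49 to 1.29), 0.31 over the 14 core subunits (-0.16 to 0.53), 0.24 over the 17 regulatory subunits (-0.14 to 0.52) and 0.05 over the 12 accessory members (-0.32 to 0.73). Past the adjusted threshold were 2 of 5, 1 of 14, 0 of 17 and 1 of 12, all higher in DXZ. These were 40%, 7.14%, 0% and 8.33%, against 3.24% of all genes called higher and 5.56% in either direction. At an unadjusted p below 0.05 there were 5 of 5 immunoproteasome members, 9 of 14 core, 8 of 17 regulatory and 3 of 12 accessory members. All were higher, as 14.0% of all genes were at that threshold. The difference between classes was not tested.

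Levels per gene length put the inducible subunits Psmb8 and Psmb9 near the bottom of the family, but not Psmb10, Psme1 or Psme2. On the deposited FPKM scale, which depends on the gene lengths in the table, the highest mean over the 7 libraries was Psmb5 at 190 FPKM, followed by Psmb4 at 117, Psma6, an alpha-ring subunit, at 109, and the ATPases Psmc5 at 87 and Psmc1 at 80.9 FPKM. The activator subunit Psme1 averaged 44 FPKM, Psme2 21.4 and Psmb10 21.3, whereas Psmb8 averaged 5.52 and Psmb9 2.58 FPKM. Psmb8 averaged 8.31 ± 3.63 FPKM (SD, n = 3) in DXZ kidneys and 3.43 ± 0.675 FPKM (SD, n = 4) in saline kidneys, and Psmb9 averaged 3.55 ± 1.43 FPKM in DXZ kidneys and 1.84 ± 0.652 FPKM in saline kidneys. Both lay well below Psmb5, at 230 ± 37.5 FPKM in DXZ kidneys and 160 ± 25.6 FPKM in saline kidneys. Summed over the 5 immunoproteasome members, the level was 127.8, 105.6 and 125.4 FPKM in DXZ 1, 2 and 3, against 69.09, 86.8, 73.84 and 75.28 FPKM in saline 1, 2, 3 and 4. The 14 core subunits summed to 978.1, 1169 and 1214 FPKM in the DXZ libraries, against 791.6, 870.8, 959.6 and 927.8 FPKM in the saline libraries. The 17 regulatory subunits summed to 732.8, 860.1 and 856 FPKM in the DXZ libraries, against 671, 689.5, 719.2 and 714.8 FPKM in the saline libraries. None of these 3 sums overlapped between groups, and the smallest gaps were between DXZ 1 and saline 3 for the core and the regulatory subunits.

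Of the inducible catalytic subunits none passed edgeR's adjusted test with the low-count filter. Without that filter edgeR called Psmb8 and Psmb10 (adjusted p = 0.0227 and 0.0363), as did DESeq2 (adjusted p = 0.0022 and 0.00933), and neither called Psmb9. Psmb8 (chromosome 17, 34197721 to 34201454), which takes the place of Psmb5, stood at 32.91, 12.34 and 23.80 CPM (counts scaled to library size by TMM) in DXZ 1, 2 and 3, against 9.173, 11.36, 10.26 and 6.935 CPM in saline 1, 2, 3 and 4. DXZ 2 was barely above saline 2, and the other DXZ libraries were far above every saline library. The log2 fold change of 1.29 (standard error 0.314, edgeR adjusted p = 0.0545) was the highest of any member. Without DXZ 1 it was 0.94 (edgeR adjusted p = 0.075), and over the 7 libraries left out in turn it ran between 0.94 and 1.57.

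Psmb9 (chromosome 17, 34181988 to 34187764), which takes the place of Psmb6, had 18.71, 7.801 and 12.93 CPM in DXZ 1, 2 and 3, against 8.083, 9.515, 5.132 and 4.408 CPM in saline 1, 2, 3 and 4. DXZ 2 lay below saline 1 and saline 2, so the groups overlapped. Its log2 fold change was 0.95 (standard error 0.355, edgeR adjusted p = 0.142), and 0.61 without DXZ 1. The annotated intervals of Psmb9 and Tap1 share 212 bases on opposite strands, and since the strand setting of the counting is not given in the sources used here, reads in that stretch cannot be assigned with certainty.

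Psmb10 (chromosome 8, 105935735 to 105938444), which takes the place of Psmb7, had 55.18, 37.37 and 53.61 CPM in DXZ 1, 2 and 3, against 25.00, 38.30, 25.54 and 21.22 CPM in saline 1, 2, 3 and 4. The 2 groups overlapped by 1 library each, DXZ 2 lying just below saline 2. Its log2 fold change was 0.82 (standard error 0.219, edgeR adjusted p = 0.0648), and 1.03 without saline 2, where it passed the test (edgeR adjusted p = 0.0456).

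The activator subunits rose, although without the low-count filter Psme1 did not pass (edgeR adjusted p = 0.054). Psme1 (chromosome 14, 55578123 to 55581529) had 113.7, 116.7 and 120.7 CPM in DXZ 1, 2 and 3, against 70.69, 92.17, 81.01 and 89.80 CPM in saline 1, 2, 3 and 4, without overlap and with the tightest DXZ values of the 5 members (117.1 ± 3.52 CPM, SD, n = 3). Its log2 fold change was 0.49 (standard error 0.109, edgeR adjusted p = 0.0445). Psme2 (chromosome 14, 55587441 to 55591113), which lies 5912 bases beyond Psme1 and encodes the other subunit of the same ring, had 52.41, 42.03 and 48.71 CPM in DXZ 1, 2 and 3, against 30.44, 29.14, 30.85 and 32.32 CPM in saline 1, 2, 3 and 4. The saline libraries lay within a narrow band (30.69 ± 1.31 CPM, SD, n = 4) and every DXZ library above it, for a log2 fold change of 0.64 (standard error 0.0996, edgeR adjusted p = 0.0215), the lowest adjusted p of any member.

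Psme2b (chromosome 11, 48945354 to 48946190) matches a Psme2 transcript at 789 of 794 aligned bases (99.4%), so the authors' counting could have split reads between the 2 genes and both values are uncertain. It had 49.48, 40.82 and 51.96 CPM in DXZ 1, 2 and 3, against 22.87, 34.67, 32.81 and 24.09 CPM in saline 1, 2, 3 and 4, again without overlap (log2 fold change 0.73, standard error 0.172, edgeR adjusted p = 0.0498). With the reads of Psme2 and Psme2b summed into 1 gene, an alternative chosen after seeing the data, the log2 fold change was 0.68 (edgeR adjusted p = 0.0224) and 3 of 47 members passed.

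**Figure D2:**
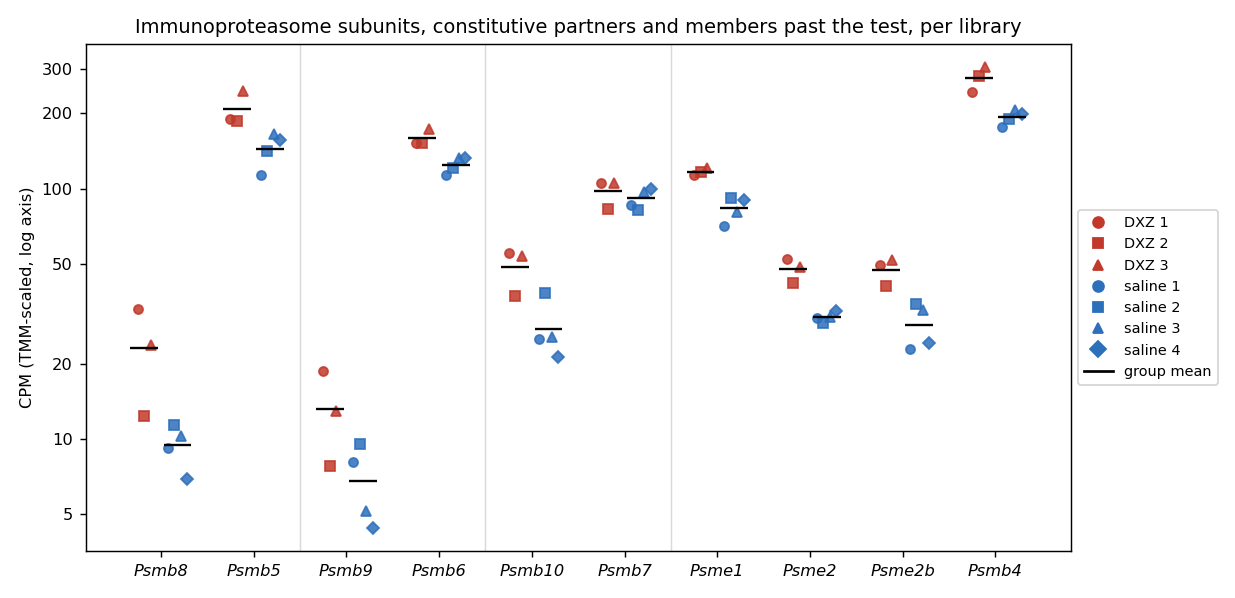
CPM per library (TMM-scaled, log axis) of the inducible subunits beside their constitutive partners, the activator subunits, Psme2b and Psmb4; red is DXZ (n = 3), blue is saline (n = 4), the marker shape gives the replicate and the line the group mean. DXZ 2 (red square) is the lowest DXZ library for Psmb8, Psmb9, Psmb10 and Psme2.

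Relative to their constitutive partners, the inducible subunits had higher means in DXZ kidneys, but no ratio differed beyond the spread between libraries. As a share of Psmb5 on the FPKM scale, Psmb8 amounted to 5.66%, 2.17% and 3.17% in DXZ 1, 2 and 3, against 2.65%, 2.64%, 2.03% and 1.45% in saline 1, 2, 3 and 4. Psmb9 amounted to 6.29%, 2.63% and 3.80% of Psmb6 in the DXZ libraries, against 3.65%, 4.04%, 1.98% and 1.70% in the saline libraries. Psmb10 stood nearer its partner. It amounted to 105%, 90.4% and 102% of Psmb7 in the DXZ libraries, against 58.3%, 93.1%, 52.7% and 42.5% in the saline libraries. These percentages depend on the deposited gene lengths, which were 1705 bases for Psmb10 and 3421 for Psmb7. From CPM, which is not scaled by length, the mean log2 ratio of Psmb10 over Psmb7 was -1.02 in DXZ and -1.76 in saline. It was -3.27 and -3.93 for Psmb8 over Psmb5, and -3.67 and -4.24 for Psmb9 over Psmb6. The Psmb7 interval is also overlapped by Nek6. The mean log2 ratio from CPM was higher in DXZ by 0.66 for Psmb8 over Psmb5, 0.57 for Psmb9 over Psmb6 and 0.74 for Psmb10 over Psmb7. Two-sided exact permutation tests over all 35 arrangements of the 7 libraries gave p = 0.2, 0.257 and 0.0857 for these 3 pairs, each 0.257 after Benjamini-Hochberg adjustment over the 3, and the smallest p the design allows is 0.0286. The groups overlapped in each pair. Without DXZ 1 the differences were 0.29, 0.24 and 0.70.

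**Figure D3:**
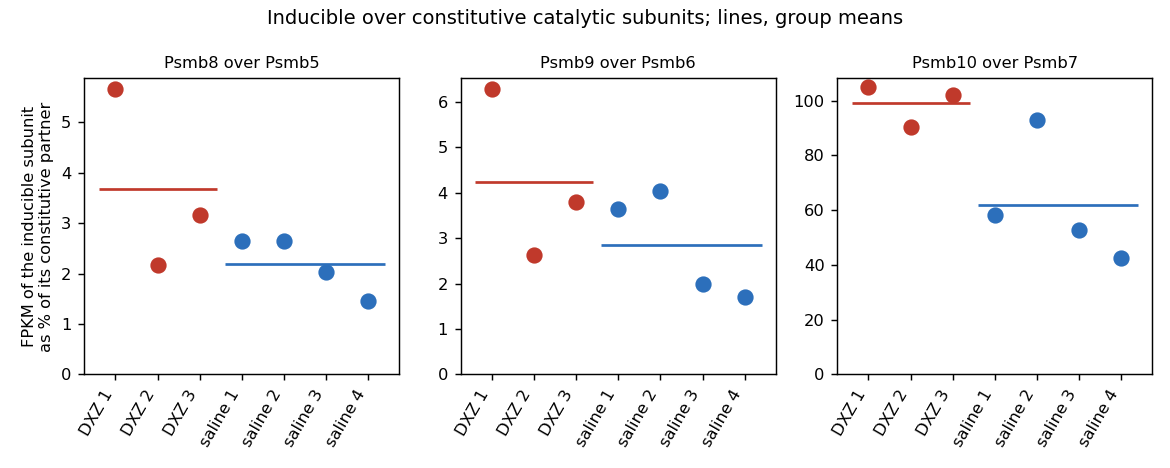
FPKM of each inducible subunit as a percentage of its constitutive partner, per library, with red for DXZ (n = 3), blue for saline (n = 4) and lines for group means. Psmb8 and Psmb9 stay under 7% of their partners in every library, whereas Psmb10 lies between 42.5% and 105%. The percentages depend on the deposited gene lengths.

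Among the constitutive catalytic subunits, Psmb5, which carries the chymotrypsin-like activity, had 190.9, 187.0 and 246.7 CPM in DXZ 1, 2 and 3, against 113.9, 141.3, 166.3 and 156.8 CPM in saline 1, 2, 3 and 4. All DXZ libraries lay above all saline libraries, but the log2 fold change of 0.53 (standard error 0.159, edgeR adjusted p = 0.0879) did not pass. Psmb6, the caspase-like subunit, likewise had no overlap, with 152.3, 151.7 and 173.9 CPM in the DXZ libraries, against 113.3, 120.6, 132.6 and 132.3 CPM in the saline libraries (log2 fold change 0.35, standard error 0.101, edgeR adjusted p = 0.0777). Psmb7, the trypsin-like subunit, overlapped broadly, with 105.8, 82.90 and 105.5 CPM in the DXZ libraries, against 86.05, 82.54, 97.19 and 100.1 CPM in the saline libraries (log2 fold change 0.10, standard error 0.122, edgeR adjusted p = 0.656). The interval of that difference, -0.18 to 0.38 on the log2 scale, still allows a change of the size measured for Psmb6. The annotated interval of Psmb7 is also overlapped by Nek6, a kinase gene with counts of its own.

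Of the rest of the core, Psmb4 (chromosome 3, 94884093 to 94886961), a non-catalytic beta subunit, was the only core subunit called by edgeR, and it was not called without the low-count filter (edgeR adjusted p = 0.0531). DESeq2 called 5 core subunits higher, Psma6, Psmb3, Psmb4, Psmb5 and Psmb6. It also called more of all genes higher, 7.61% against 3.24% by edgeR. Psmb4 had 244.1, 283.0 and 306.7 CPM in DXZ 1, 2 and 3, against 177.0, 190.8, 205.7 and 199.5 CPM in saline 1, 2, 3 and 4. DXZ 1 lay nearest the saline range, and the log2 fold change of Psmb4 was 0.52 (standard error 0.111, edgeR adjusted p = 0.0406). The 7 beta subunits had a median of 0.35 on the log2 scale and all 7 were positive; for 4 of them every DXZ library lay above every saline library, as for 12.8% of all genes. The 7 alpha subunits had a median of 0.28 and 6 were positive, 2 of them without overlap, and none passed by edgeR. Psma7 had the largest alpha value, at 0.41 (standard error 0.146, edgeR adjusted p = 0.132), while Psma4 was the only core subunit with a negative one. Psma4 had 148.0, 187.5 and 188.8 CPM in the DXZ libraries, against 189.2, 183.8, 197.2 and 213.0 CPM in the saline libraries (log2 fold change -0.16, standard error 0.117, edgeR adjusted p = 0.42), and its groups overlapped.

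None of the regulatory subunits passed the adjusted test. At an unadjusted p below 0.05 by the same edgeR test, 8 of 17 were higher, against 14.0% of all genes. DESeq2 called 3 of the 17 higher, Psmd2, Psmd8 and Psmd11, against 7.61% of all genes. The 6 ATPases had a median log2 fold change of 0.17, and 5 of them lay above the saline range in every DXZ library, as 12.8% of all genes did. Psmc1 had the largest ATPase value, at 0.30 (standard error 0.101, edgeR adjusted p = 0.117), with 167.3, 164.7 and 195.5 CPM in the DXZ libraries, against 139.5, 133.6, 151.6 and 148.6 CPM in the saline libraries. Psmc6 was near 0, at -0.02 (standard error 0.119, edgeR adjusted p = 0.951), with 104.3, 141.3 and 111.6 CPM in the DXZ libraries, against 119.0, 124.3, 124.5 and 113.5 CPM in the saline libraries; its sign changed when single libraries were left out. The 11 non-ATPase subunits had a median of 0.26, and 4 did not overlap between groups. The scaffold subunit Psmd11, which helps hold the lid of the regulatory particle together, had the largest value, 0.52 (standard error 0.154, edgeR adjusted p = 0.0848), with 110.9, 171.7 and 147.9 CPM in the DXZ libraries, against 89.95, 96.39, 101.3 and 112.6 CPM in the saline libraries. DXZ 1 lay below saline 4 for this gene, and the others were far above every saline library. Psmd6, another lid subunit, had the lowest value, -0.14 (standard error 0.0914, edgeR adjusted p = 0.365), with 90.91, 103.3 and 99.43 CPM in the DXZ libraries, against 108.1, 99.78, 115.5 and 109.1 CPM in the saline libraries.

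The accessory members were mostly near 0. The activators Psme3 and Psme4 and the inhibitor Psmf1 had log2 fold changes of 0.02, -0.10 and 0.08 and did not pass; their difference from Psme1 and Psme2 was not tested. Of the chaperones that assemble the base of the regulatory particle, Psmd10, also known as gankyrin, had 0.51 (standard error 0.158, edgeR adjusted p = 0.0922), while Psmd5 had 0.03 and Psmd9 0.10. Psmd10 had 57.09, 62.65 and 48.71 CPM in the DXZ libraries, against 33.59, 49.71, 40.01 and 33.97 CPM in the saline libraries, overlapping by DXZ 3 and saline 2. Of the chaperones that assemble the core, Psmg4 had 0.52 (standard error 0.181, edgeR adjusted p = 0.123), Psmg2 0.09 and Psmg3 0.00. Psmg1 was the only member with every DXZ library below every saline library, at 22.15, 23.40 and 22.38 CPM in the DXZ libraries, against 23.79, 26.28, 23.95 and 26.74 CPM in the saline libraries, a log2 fold change of -0.15 (standard error 0.0953, edgeR adjusted p = 0.353). Psmc3ip, Psmd5 and Psmd9 are overlapped on the opposite strand by Mlx, Cutal and Hpd, which had mean counts of 706.4, 682.7 and 826.9, against 62.6, 990.4 and 694.1 for the members, so their values are uncertain. Expressed genes also overlap Psma2 (AW209491, on the same strand) and Psmc3 and Psmd13 (Slc39a13 and Sirt3, on the opposite strand). Psmc3ip matches the name rule but encodes a meiotic recombination protein, not a proteasome subunit. It had the lowest value of all members (-0.32, standard error 0.236, edgeR adjusted p = 0.444), at a mean of 3.224 CPM in DXZ kidneys and 4.015 CPM in saline kidneys.

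The standard subunits and the immunoproteasome followed different orders among the DXZ libraries. DXZ 1 was the lowest DXZ library for 27 of the 31 core and regulatory subunits, yet the highest for 4 of the 5 immunoproteasome members. DXZ 2 was the lowest for 4 of those 5. A score, the mean log2 CPM of a class less its mean over the 7 libraries, was -0.01, 0.25 and 0.25 for the core in DXZ 1, 2 and 3, against -0.26, -0.14, -0.01 and -0.08 in saline 1, 2, 3 and 4. The regulatory score was -0.03, 0.20 and 0.18 in the DXZ libraries, against -0.14, -0.11, -0.04 and -0.06 in the saline libraries. DXZ 1 was thus level with saline 3 in both, and the rest of the DXZ group stood clear of it. The immunoproteasome score was 0.77, 0.07 and 0.56 in the DXZ libraries, against -0.36, -0.06, -0.41 and -0.57 in the saline libraries, with DXZ 2 close to saline 2. In the saline group too the orders differed: saline 3 was the highest saline library for 22 of the 31 core and regulatory subunits, and saline 2 for 4 of the 5 immunoproteasome members. The median coefficient of variation was 13.3% in DXZ and 7.37% in saline for core subunits, 9.73% and 5.78% for regulatory subunits, and 20.2% and 20.0% for immunoproteasome members.

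Interferon response genes and leukocyte markers had their highest score in the same library as the immunoproteasome. The interferon score over 21 tested genes was 0.98, -0.13 and 0.24 in DXZ 1, 2 and 3, against -0.31, 0.17, -0.43 and -0.51 in saline 1, 2, 3 and 4. The leukocyte score over 11 genes was 1.33, -0.63 and -1.37 in the DXZ libraries, against 0.15, 0.68, 0.13 and -0.30 in the saline libraries. Saline 2 was the highest saline library in both, and in the immunoproteasome. DXZ 3, however, had the lowest leukocyte score of all 7 libraries beside the second highest immunoproteasome score. Of the 15 leukocyte markers, 0 were at 0 counts in every DXZ library; the part of leukocytes in the immunoproteasome values was not tested. The NRF2 target score over 12 genes was -0.17, 0.68 and 0.84 in the DXZ libraries, against -0.69, -0.35, -0.17 and -0.13 in the saline libraries. This order was nearer to that of the core, with DXZ 1 level with saline 3 and DXZ 2 and DXZ 3 above every saline library. Unlike in the core, the groups overlapped, since DXZ 1 lay below saline 4. Such an order was not particular to NRF2 targets. Proteasome-associated genes outside the name rule had -0.03, 0.10 and 0.12 in DXZ 1, 2 and 3. These scores describe 7 libraries and no relation between them was tested.

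**Figure D4:**
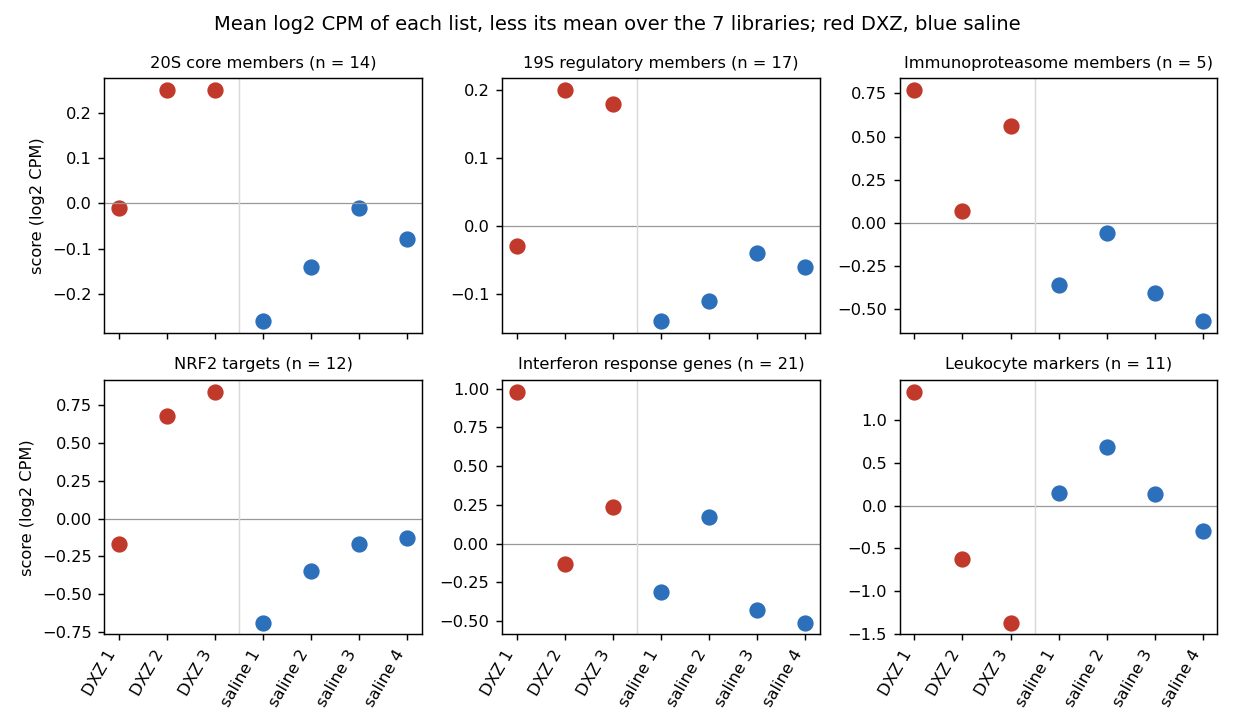
Score of each list (mean log2 CPM less its mean over the 7 libraries) by library, red for DXZ and blue for saline; each panel has its own scale. DXZ 1 is the lowest DXZ library for the core, regulatory and NRF2 lists and the highest for the immunoproteasome, interferon and leukocyte lists.

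Genes that work with the proteasome but fall outside the name rule mostly did not pass the test. Of 24 such genes, 2 rose and 0 fell by edgeR, and 16 had positive log2 fold changes, the median being 0.09 (8.33% called, against 5.56% of all genes in either direction). Zfand2a, encoding the arsenite-inducible proteasome-binding protein AIRAP, had 35.84, 37.73 and 33.83 CPM in the DXZ libraries, against 18.63, 17.25, 23.34 and 18.81 CPM in the saline libraries (log2 fold change 0.88, standard error 0.122, edgeR adjusted p = 0.0204). Sem1, the smallest subunit of the regulatory lid, which carries no Psm symbol, had 89.89, 80.48 and 114.7 CPM in the DXZ libraries, against 52.51, 60.36, 68.05 and 63.70 CPM in the saline libraries (log2 fold change 0.64, standard error 0.142, edgeR adjusted p = 0.0447). Neither group pair overlapped. The maturation chaperone Pomp had 0.38 (edgeR adjusted p = 0.0788), the ubiquitin receptor Adrm1 0.18 (edgeR adjusted p = 0.411), Nfe2l1 0.24 (edgeR adjusted p = 0.37) and Ddi2, the protease that activates NRF1, -0.35 (edgeR adjusted p = 0.089). Over libraries left out in turn Zfand2a kept its call in 5 of 7 fits, losing it without DXZ 2 or saline 4, and Sem1 in 1, without DXZ 1. In that last fit 4 of the 24 were called higher, Pomp among them, where 5.07% of all genes were called higher. DESeq2 called 3 of the 24 higher, Sem1, Zfand2a and Pomp, and 1 lower, Ddi2. It called 13.8% of all genes in either direction.

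The genes that receive proteasome products were also higher in part. Of 13 peptide-loading and MHC class I genes, 4 rose and 0 fell (30.8% higher, against 3.24% of all genes), with a median log2 fold change of 0.42. Tap1, 1 of the 2 chains of the peptide transporter, had 64.53, 42.57 and 47.35 CPM in the DXZ libraries, against 22.76, 37.52, 24.44 and 20.86 CPM in the saline libraries (log2 fold change 0.96, standard error 0.227, edgeR adjusted p = 0.0494). The class I heavy chains H2-K1 and H2-D1 had 0.68 and 0.69, and the loading factor Tapbp 0.52 (edgeR adjusted p = 0.0398, 0.0437 and 0.0415). The other transporter chain Tap2 had 0.42 (edgeR adjusted p = 0.234), the light chain B2m 0.44 (edgeR adjusted p = 0.216) and the class I transactivator Nlrc5 0.72 (edgeR adjusted p = 0.186). With any single library left out, 0 or 1 of the 13 passed. Of 21 interferon response genes tested, none passed by edgeR, while all 21 were positive (median 0.76), against 51.3% of all genes. By edgeR 9 were higher at an unadjusted p below 0.05, against 14.0% of all genes. DESeq2 called 7 higher, against 7.61% of all genes. The lowest adjusted values were those of Ifit1 (log2 fold change 0.83, edgeR adjusted p = 0.051), Oasl1 (1.31, 0.0513), Gbp2 (0.91, 0.0606) and Irf7 (1.3, 0.0623). Without DXZ 1 the median of this list was 0.28 and that of the class I list 0.21. Of 12 NRF2 targets, 4 rose and 0 fell (33.3% higher; median 0.70): Txnrd1, G6pdx, Hmox1 and Srxn1, with log2 fold changes of 0.72, 0.75, 0.87 and 1.71. Over all genes, 5.07% were called higher without DXZ 1, against 3.24% with all 7 libraries. In that fit the median of the NRF2 list was 0.97 and 8 of its genes were called. The count was 2 without saline 1, saline 2 or saline 3, and 0 by edgeR without DXZ 2, DXZ 3 or saline 4, where the medians were 0.64, 0.54 and 0.72.

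The calls among members depended on which libraries were fitted, as did those over all genes. Without DXZ 1, 11 members passed, where 5.07% of all genes were called higher. The 11 were Psmb4, Psme1, Psme2, Psma3, Psma5, Psma6, Psmb3, Psmd4, Psmd8, Psmd11 and Psmg4. Without DXZ 2, DXZ 3 or saline 4 no member passed by edgeR, where 0%, 0.496% and 0.0132% of all genes were called higher. At an unadjusted p below 0.05, 18, 14 and 21 members were higher in these fits. The share of all genes at that unadjusted threshold was not computed for them. Without saline 1 or saline 3 only Psme2 passed, and without saline 2 only Psmb10. Of all genes, 1.26%, 1.42% and 1.26% were called higher without saline 1, saline 3 and saline 2. The fold changes moved less: over the 7 libraries left out in turn the class median ran between 0.61 and 1.03 for the immunoproteasome, 0.25 and 0.38 for the core and 0.16 and 0.29 for the regulatory subunits. With DXZ 1 and saline 1 both left out, 8 members passed, where 4.1% of all genes were called higher, and the class medians were 0.68, 0.35 and 0.27.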

How the data were processed

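Total RNA was extracted from kidney with Trizol, per the labels, and sequenced in 7 libraries, 3 DXZ and 4 saline. The authors deposited whole-number read counts per gene, with no normalization. Their deposited FPKM values were those counts over gene length and over a library-wide constant, which held for 100% of genes within 0.1%, so FPKM adds no second measurement. The submitters' processing notes name HISAT2, StringTie and mm9, without versions. How reads were assigned to genes, and whether by strand, is not given in the sources used here. Positions in the table match GRCm38 and not mm9: 54409 identifiers also occur in GENCODE M21, and 53499 of them (98.3%) start and end at the same base there, as do 47 of the 48 members.

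The counts were tested in edgeR 4.0.16 (R 4.3.3) with filterByExpr, TMM scaling and the quasi-likelihood F test over all 7 libraries with no covariate, adjusted by Benjamini-Hochberg over 15351 genes at 0.05 with no minimum fold. A fold change is log2 of DXZ relative to saline, its standard error comes from its size and F, and CPM is TMM-scaled. Ratios and scores use log2 CPM with a prior count of 2. Promoters were read from RefSeq windows with Python 3.11.15, and transcripts aligned with Biopython 1.88. The test was checked on simulated data. Between replicates, chi-square per degree of freedom was 15.2 to 100, so no library repeated another. The highest values, 100 and 96, were those of saline 1 with saline 3 and saline 4. DXZ 1 had 66.5 and 60.6 with DXZ 2 and DXZ 3. Averaged over all genes compared, the spread between libraries thus exceeded counting error. Whether it did so for single members was not tested.

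The members and all gene lists (proteasome-associated, class I, interferon, NRF2, leukocyte, proximal tubule and injury) were chosen with earlier results of these data known. Named were the immunoproteasome members, the constitutive catalytic subunits, members past the test and the largest and smallest change in each class; from other lists, up to 4 genes of lowest adjusted p and 7 genes fixed by name (Pomp, Adrm1, Nfe2l1, Tap1, Tap2, B2m and Nlrc5). Ddi2, Psmd5, Psmd9, Psmg2, Psmg3 and Psme3 were named outside that rule after their values were seen, as were overlapping genes and members listed for their level, promoter or result under an alternative. Alternatives were median-of-ratios size factors, other filters, robust dispersion, limma-voom (limma 3.58.1), DESeq2 1.42.0, limma on log2 FPKM plus 1 or 0.1, a replicate block and libraries left out.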

Additional observations from a re-analysis of the deposited data

Results flagged for a closer look

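In the saline group 1 library stood apart from the other 3 by Dixon's test for 2 of the 48 members, and chance alone flags about 1 group in 20. Psmd13, a lid subunit of the regulatory particle, had 101.3 CPM in saline 1, against 116.0 to 118.2 CPM in the other saline libraries. Psmg3, a core assembly chaperone, had 5.504 CPM in saline 1, against 8.286 to 8.675 CPM in the other saline libraries. The DXZ group, with 3 libraries, was not put to this test.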

How the results depend on the processing

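The class medians moved by less than 1 SD of their library scores under every alternative run, and the 3 ratio differences kept their direction; with a library left out, the exact test on ratios cannot reach 0.05, so its p says nothing there. The counts of calls did not hold as well. Against 853 genes and 4 members, DESeq2 called 2116 and 14, limma on log2(FPKM + 1) without a filter 145 and 1, and the fit with replicate 1 of both groups left out 1332 and 8; leaving out single libraries gave 1 to 1574 genes and 0 to 11 members. The other scalings, filters and tools gave 824 to 983 genes and 3 or 4 members, not always the same: without a filter the 4 were Psmb8, Psmb10, Psme2 and Psme2b, and 2 of them were shared with the filtered fit. Of the single-gene results for members covered by the naming rule, 363 kept direction and side of the threshold, 36 lost a call, 13 gained 1 and 5 changed sign: Psmc6 (-0.17 to 0.07 over single libraries left out) was 0.07 without DXZ 1, 0.03 without DXZ 3, 0.00 without saline 3 and 0.06 without DXZ 1 and saline 1, and Psmf1 (-0.01 to 0.16) was -0.01 without DXZ 2. Among other members, Psmb2, Psmd1, Psme3, Psmd5 and Psmg3 were at -0.01, -0.02, -0.02, -0.08 and -0.22 without DXZ 2, Psmd1, Psmd3 and Psmd9 at -0.03, -0.01 and -0.04 without DXZ 3, Psmd9 and Psmg3 at -0.01 and -0.13 without saline 1, and Psme3 at -0.01 without saline 4. The cause was not tested, except that a left-out library means fewer samples.

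The labels do not say that replicate numbers pair the libraries. Deviations of same-numbered libraries from their group means correlated at 0.26, -0.09 and 0.23, so the numbers were not taken as pairs. With the replicate number as a block, 85 genes and 0 members passed by edgeR, and 0.3% of all genes were called higher. At an unadjusted p below 0.05, 19 members were higher in that fit. The share of all genes at that unadjusted threshold was not computed for it.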
